A study of Rattus norvegicus with 10 samples.

Results

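Fatty acids are a main fuel of resting and slowly contracting muscle, and the genes described here carry them from the capillary into the mitochondrion and break them down there. They were chosen by name, as 40 listed genes of fatty acid uptake and oxidation and of ketone body use, and 39 of them had a probe set among the 23188 tested. A probe set reads a transcript through several short probes and gives 1 value, and each of the 39 genes had 1 of them. Cd36, the fatty acid translocase of the plasma membrane, was not analysed here. The samples were femoral skeletal muscle of 10 male wild-type Wistar rats killed by cervical dislocation, 5 sampled at once (0 h of postmortem interval, PMI) and 5 others after 48 h at 25 °C. One Clariom S Rat array was run per animal, 10 in all, and the values are log2 values normalized across the 10 arrays. The rats of the groups were different animals, so each change is a difference between group means and not a course within an animal.

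In a muscle cell a fatty acid is bound by a carrier protein, joined to coenzyme A by an acyl-CoA synthetase and passed across the mitochondrial membranes as a carnitine ester. In the matrix the acyl-CoA goes through a repeating cycle of dehydrogenation, hydration, a further dehydrogenation and thiolysis, which releases acetyl-CoA and shortens the chain at each turn. Electrons from the opening step reach the respiratory chain through the electron transfer flavoprotein and its dehydrogenase. Red, slow-contracting fibres are known for a high content of these enzymes. Malonyl-CoA, made by the muscle form of acetyl-CoA carboxylase, inhibits the entry step, carnitine palmitoyltransferase 1.

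At 48 h, 26 of the 39 genes fell, meaning at least 2-fold lower with an adjusted p under 0.05 in limma's test over all probe sets, and 0 rose by the same criteria. Of all 23188 probe sets, 12.1% fell and 4.35% rose. The median change of the 39 genes was −1.51 on the log2 scale, 2.85-fold lower at 48 h, against a median of 0.10 over all probe sets. All 48 h rats lay below all 0 h rats in 27 genes, and above them in 2, while the groups overlapped in 10. Over all probe sets these shares were 17.7% and 13.4%. A fall of at least 4-fold was reached by 16 genes, compared with 3.09% of all probe sets. At the adjusted p alone 5 further genes were lower and 2 were higher, and 6 did not pass it, while 22.8% of all probe sets were lower and 22% higher at that p. Lower values can come from fewer fibres of a type in the sample or from less RNA per fibre, and arrays of bulk muscle cannot tell these apart.

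**Figure D1:**
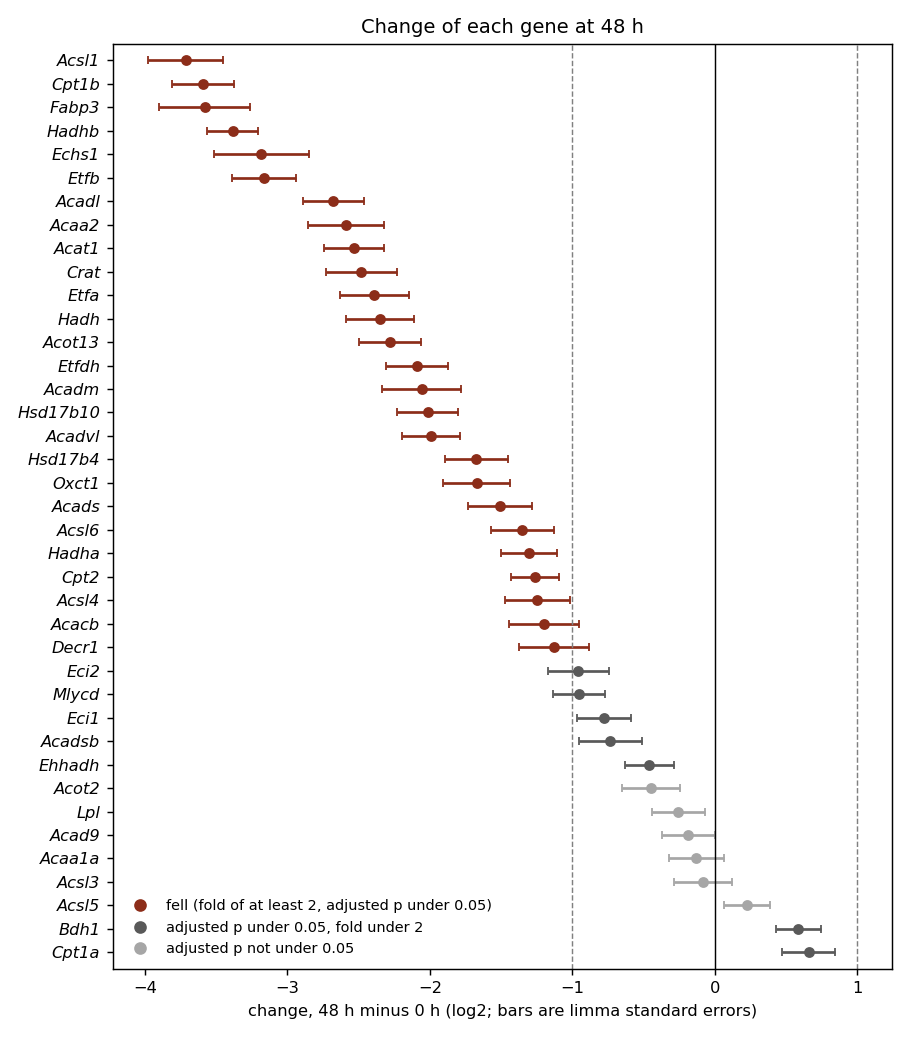
The change of each of the 39 genes from 0 h to 48 h (log2 of 48 h minus 0 h, horizontal axis) is drawn with its standard error, sorted by size and coloured by the test it passed, with dashed lines at a 2-fold difference. The changes run from −3.71 for Acsl1 to 0.66 for Cpt1a, and all 7 genes of the hydratase, dehydrogenase and thiolase group and all 3 of the electron transfer flavoprotein lie beyond the 2-fold line.

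The arrays matched their labelled tissue at 0 h, where the medians of 9 fast-fibre and general muscle markers lay between 12.6 and 12.8 in the 5 rats. At 48 h these medians lay between 10.96 and 12.08, and 5 of the 9 markers fell, with a median change of −1.11 and with 8 lower without overlap. The 9 slow-fibre markers were uneven at 0 h, with medians of 5.90, 10.11, 7.24, 9.84 and 10.93 in rats 1 to 5, while at 48 h they lay between 6.60 and 6.90. All 9 fell, with a median change of −2.53, and in all 9 the groups overlapped. Markers of endothelium were higher at 48 h, 8 of 9 having risen (median change 1.58), and of 9 adipocyte markers 1 fell and 2 rose. The 8 macrophage markers had a median change of −0.57, with 1 that fell. The 6 hepatocyte markers had medians between 3.49 and 4.79 over the 10 rats, and 1 of them rose (Serpina1, by 1.08). The part of these cell types in the changes described here was not tested. The RNA was examined on gels for its integrity in the 0 h group but not in the 48 h group, so RNA quality and PMI cannot be told apart in these values.

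Rat 1 of the 0 h group stood apart from the other 4 in the fatty acid genes. It had the lowest value of the 5 in 26 of the 39 genes (66.7%), against 23.2% of all probe sets, and its median deviation from the 0 h median was −0.35. It was also the rat with the lowest slow-fibre median, and its adipocyte marker median was 5.89, against 4.21 to 5.22 in the others. Rat 3, whose slow-fibre median was 7.24, had the lowest value in 5 of the 39 genes. The part of slow fibres or adipocytes in the low values of rat 1 was not tested. Without rat 1 of the 0 h group 28 genes fell and the median change was −1.62. At 48 h rat 2 had the lowest value in 15 genes (38.5%, against 20.9% of all probe sets) and rat 1 the highest in 16, while rat 1 was the highest in 18.5% of all probe sets.

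**Figure D2:**
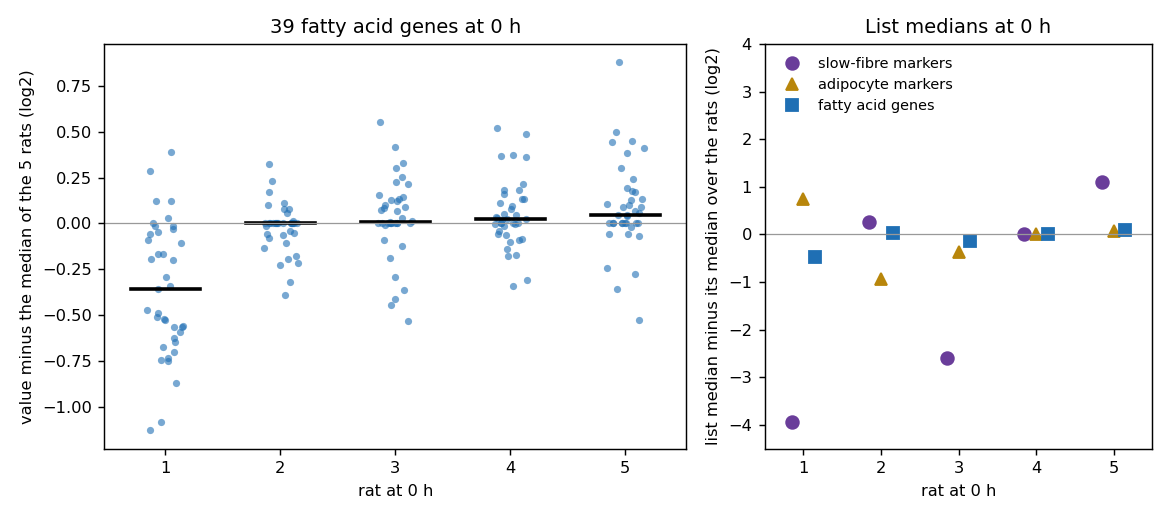
The left panel plots, for each 0 h rat, the 39 fatty acid genes as their distance from the median of the 5 rats (log2), with a bar at the median of the genes, and the right panel plots the median of 3 gene lists as its distance from that list's median over the rats. Rat 1 lies lowest in the left panel with a bar at −0.35, and in the right panel it has the lowest slow-fibre and the highest adipocyte medians.

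Of the genes of uptake, the intracellular carrier fell and the lipase of the capillary wall did not pass the test. Fabp3, the fatty acid-binding protein of heart and skeletal muscle, had log2 values of 8.68, 9.80, 9.79, 9.83 and 10.21 in rats 1 to 5 at 0 h and 7.25, 5.24, 6.03, 5.74 and 6.13 in rats 1 to 5 at 48 h. The groups did not overlap, although rat 1 was the lowest at 0 h and rat 1 the highest at 48 h. Fabp3 fell by 3.58 (SE 0.32, limma adjusted p = 1.77e-07), to a normalized signal of 8.35% of that at 0 h. Lpl, lipoprotein lipase, which frees fatty acids from circulating triglyceride, had 8.08, 7.95, 7.43, 7.61 and 8.40 at 0 h and 7.56, 7.82, 7.62, 7.56 and 7.62 at 48 h. The groups overlapped, and the difference of −0.26 did not pass the test (adjusted p = 0.272). It was 0.28 under cyclic loess scaling and −0.74 (adjusted p = 0.00499) when arrays were centred on olfactory receptor probe sets.

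The synthetases that attach coenzyme A to long-chain fatty acids differed among themselves. Acsl1, the main form of muscle and the one linked to oxidation, had 7.83, 8.60, 8.70, 8.88 and 8.75 at 0 h and 5.0003, 3.99, 5.39, 5.33 and 4.48 at 48 h. Every 48 h rat lay more than 2 log2 units below every 0 h rat, and the fall of 3.71 (SE 0.26, adjusted p = 2.11e-08), 13.1-fold, was the largest of the 39 genes. Acsl4, which prefers arachidonic acid, fell by 1.24 (adjusted p = 0.000321), and Acsl6, known best from brain, fell by 1.35 (adjusted p = 9.29e-05). In Acsl4 rat 4 of 48 h, at 3.70, lay within the 48 h range of the array's background control medians (3.54 to 3.82). The call of Acsl6 ended under cyclic loess, where its change was −0.91.

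Acsl3 and Acsl5 did not pass the test. Acsl3, a form found on the endoplasmic reticulum and lipid droplets, had 7.85, 7.87, 7.82, 7.51 and 7.29 at 0 h and 7.24, 8.23, 7.70, 7.44 and 7.31 at 48 h, with the highest and the lowest of the 10 values both at 48 h. Its difference was −0.08 (SE 0.20, adjusted p = 0.758), with the sign turned under cyclic loess (0.43) and without rat 1 of the 48 h group (0.0033), and it was −0.56 (adjusted p = 0.0289) after centring on olfactory receptors. Acsl5 had 5.38, 5.55, 5.76, 5.46 and 5.65 at 0 h and 5.77, 5.85, 6.14, 5.55 and 5.62 at 48 h, and these overlapped. Its difference was 0.23 (SE 0.16, adjusted p = 0.27), and −0.25 when arrays were centred on olfactory receptor probe sets.

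**Figure D3:**
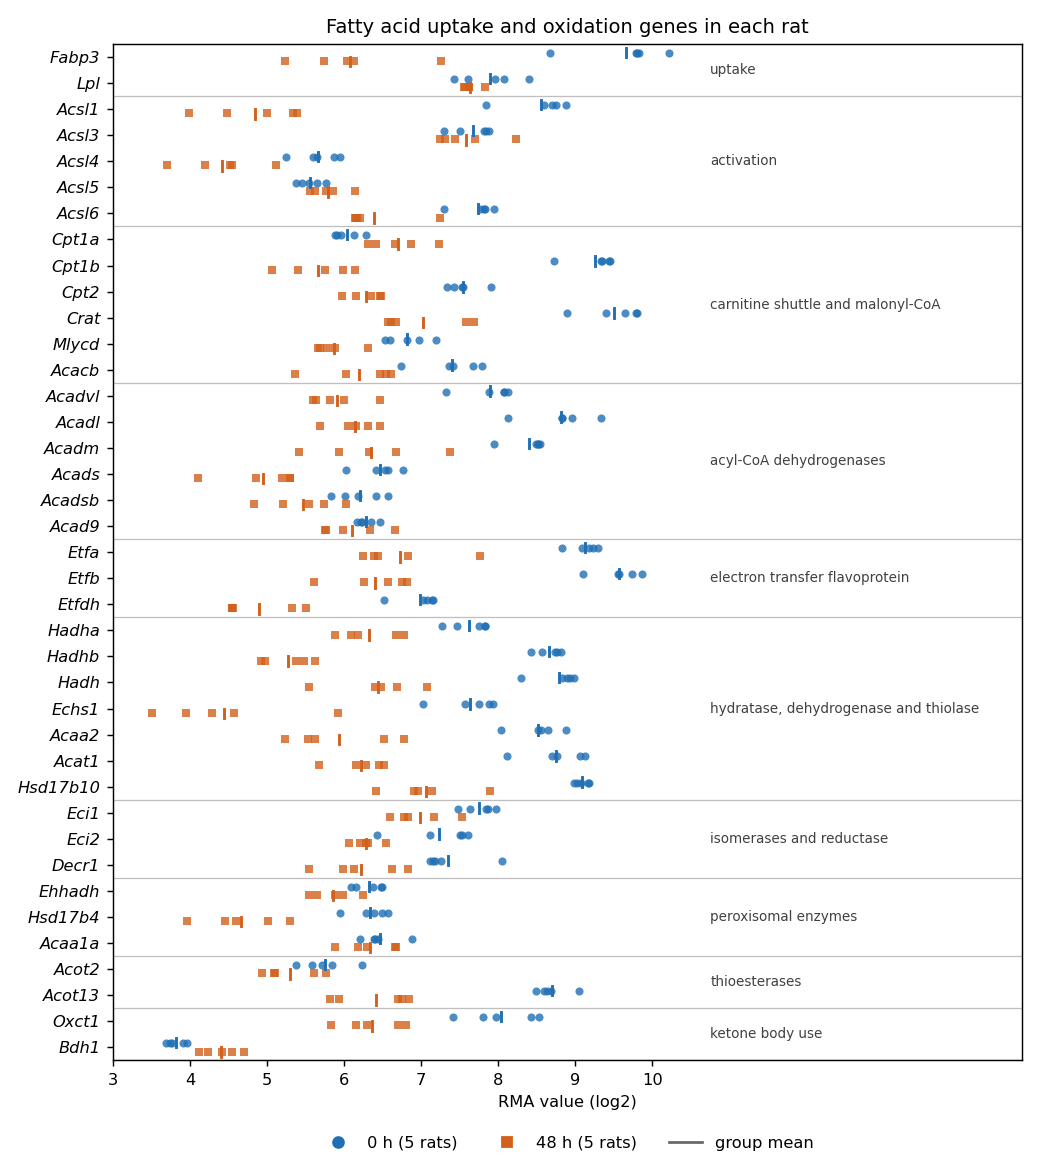
Log2 values of the 39 genes in each of the 10 rats (horizontal axis, 1 point per rat and a bar at each group mean), with the 5 rats at 0 h and the 5 rats at 48 h in different colours and genes grouped by role. The colours are apart in 29 genes, 27 with the 48 h rats lower and 2, Cpt1a and Bdh1, with the 48 h rats higher.

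The carnitine shuttle held a wide contrast between forms of the same enzyme. Cpt1b, the muscle form of carnitine palmitoyltransferase 1 on the outer mitochondrial membrane, had 8.73, 9.33, 9.45, 9.35 and 9.44 at 0 h and 6.13, 5.06, 5.76, 5.98 and 5.40 at 48 h. All 48 h rats were lower than all 0 h rats, by a mean of 3.59 (SE 0.21, adjusted p = 6.64e-09). The normalized signal, which is relative to the other probe sets, was 8.29% of that at 0 h. Cpt1a, the form typical of liver that catalyses the same step, had 5.96, 5.91, 6.29, 5.88 and 6.13 at 0 h and 6.87, 6.66, 6.41, 6.31 and 7.23 at 48 h. Every 48 h rat lay above every 0 h rat, the nearest being rat 4 of 48 h and rat 3 of 0 h. The difference of 0.66 (SE 0.19, adjusted p = 0.00899) was 1.58-fold and so did not reach the 2-fold criterion. It was 0.95 under cyclic loess and 0.18 (adjusted p = 0.481) after centring on olfactory receptors.

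Of the other genes of this step, Cpt2, the carnitine palmitoyltransferase of the inner membrane, fell by 1.26 (adjusted p = 1.31e-05). Crat, carnitine acetyltransferase, which turns acetyl-CoA into acetylcarnitine, fell by 2.48 (adjusted p = 5.94e-07), from 9.50 ± 0.38 to 7.02 ± 0.56 (SD, n = 5 each). The genes that make and remove malonyl-CoA were both lower. Acacb, the acetyl-CoA carboxylase that makes it in muscle, fell by 1.20 (adjusted p = 0.000838). Mlycd, malonyl-CoA decarboxylase, was lower by a change of −0.95 (adjusted p = 0.00046), 1.94-fold and short of the criterion. The calls of Cpt2 and Acacb ended under cyclic loess, at −0.85 and −0.81, and that of Acacb also without rat 2 of the 48 h group, at −0.99. Mlycd passed the 2-fold criterion when rat 1 or rat 2 of 0 h or rat 3 of 48 h was left out, at −1.03, −1.01 and −1.07.

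The acyl-CoA dehydrogenases, which open each turn of the cycle and are named for the chain length they take, fell in 4 of 6 cases. Acadl, the long-chain enzyme, had 8.13, 8.83, 8.96, 8.83 and 9.33 at 0 h and 6.15, 5.69, 6.05, 6.47 and 6.31 at 48 h. The groups were far apart, and Acadl fell by 2.68 (SE 0.21, adjusted p = 5.55e-08). Acadm, the medium-chain enzyme, fell by 2.06 (adjusted p = 1.43e-05), and its 48 h values were spread from 5.42 in rat 2 to 7.37 in rat 1. Acadvl, the very-long-chain enzyme of the inner membrane, fell by 1.99 (adjusted p = 7.65e-07), and Acads, the short-chain enzyme, by 1.51 (adjusted p = 4.21e-05).

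The remaining dehydrogenases were those with another main duty. Acadsb, which acts on short branched acyl-CoAs from isoleucine, was lower by a change of −0.73 (adjusted p = 0.0125) with overlapping groups. Acad9, known mainly as an assembly factor of respiratory complex I, had a difference of −0.18 (adjusted p = 0.442), which was 0.058 under cyclic loess and −0.66 (adjusted p = 0.00809) after centring on olfactory receptors.

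All 3 genes of the electron transfer flavoprotein system fell, and none of them overlapped between groups. Etfb, its beta subunit, had 9.09, 9.74, 9.56, 9.56 and 9.86 at 0 h and 6.81, 5.61, 6.26, 6.75 and 6.56 at 48 h, a fall of 3.16 (SE 0.22, adjusted p = 2.09e-08). Etfa, the alpha subunit, had 8.82, 9.29, 9.09, 9.18 and 9.22 at 0 h and 7.77, 6.82, 6.44, 6.38 and 6.24 at 48 h, a fall of 2.39 (SE 0.24, adjusted p = 6.38e-07). Rat 1 was the lowest at 0 h and the highest at 48 h for both subunits. Etfdh, the dehydrogenase that hands the electrons to ubiquinone, fell by 2.09 (adjusted p = 8.97e-07).

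All 7 genes of the later steps of the cycle fell, with a median change of −2.53, and their groups did not overlap. Hadha and Hadhb encode the alpha and beta subunits of the mitochondrial trifunctional protein, which carries out hydration, dehydrogenation and thiolysis of long chains. Hadhb, with the thiolase activity, had 8.57, 8.42, 8.81, 8.76 and 8.74 at 0 h and 5.37, 4.93, 5.48, 4.98 and 5.62 at 48 h. It had one of the narrowest spreads of the large falls and fell by 3.39 (SE 0.18, adjusted p = 2.79e-09). Hadha, with the hydratase and dehydrogenase activities, had 7.26, 7.83, 7.46, 7.83 and 7.75 at 0 h and 6.68, 5.89, 6.78, 6.09 and 6.18 at 48 h. It fell by 1.30 (SE 0.20, adjusted p = 5.35e-05), a call that ended under cyclic loess, where the change was −0.88.

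The enzymes for shorter chains fell as well. Echs1, short-chain enoyl-CoA hydratase, had 7.02, 7.57, 7.88, 7.93 and 7.75 at 0 h and 3.51, 4.28, 4.57, 3.95 and 5.93 at 48 h. Its 48 h rats were the most widely spread of the 39 genes (SD 0.92), with rat 5 well above the other 4, and it fell by 3.18 (SE 0.33, adjusted p = 9.31e-07). Rat 1 of 48 h, at 3.51, lay below the range of 3.54 to 3.82 that the medians of the array's background control probe sets took at 48 h, where a value gives only a bound. The array's design places the Echs1 probe set on a sequence not assigned to a chromosome. Acaa2, the thiolase of the mitochondrial matrix, had 8.03, 8.87, 8.55, 8.51 and 8.64 at 0 h and 5.53, 6.77, 5.23, 5.63 and 6.51 at 48 h, with rats 2 and 5 the highest at 48 h. It fell by 2.59 (SE 0.27, adjusted p = 7.59e-07).

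Acat1, the thiolase that also serves ketone bodies and isoleucine, fell by 2.53 (adjusted p = 8.97e-08). Hadh, the 3-hydroxyacyl-CoA dehydrogenase of medium and short chains, fell by 2.35 (adjusted p = 6.54e-07). Hsd17b10, a dehydrogenase of short branched chains that is also a subunit of mitochondrial RNase P, fell by 2.02 (adjusted p = 1.28e-06), and its 0 h values were close together, at 9.08 ± 0.08 (SD, n = 5).

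The auxiliary enzymes that prepare unsaturated fatty acids for the cycle changed less. Decr1, the 2,4-dienoyl-CoA reductase, fell by 1.13 (adjusted p = 0.00124), a call that ended under cyclic loess (−0.74), without rat 5 of 0 h (−0.95) and without rat 4 of 48 h (−0.96). Its 0 h values were 7.12, 7.25, 7.17, 7.16 and 8.05, so rat 5 lay well above the other 4. Eci1 and Eci2, the isomerases that shift a double bond into place, were lower by changes of −0.78 (adjusted p = 0.00339) and −0.96 (adjusted p = 0.00159), both short of 2-fold and with overlapping groups. Eci1 was at −0.29 (adjusted p = 0.293) under cyclic loess, and after centring on olfactory receptors both passed 2-fold, at −1.26 and −1.44. The overlap of Eci2 came from rat 1 of 0 h at 6.43 and rat 1 of 48 h at 6.54. Eci2 passed the criteria without either of these rats, at −1.16 and −1.02. Eci3 is a near relative of Eci2, so signal may be shared between them.

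Of the 3 peroxisomal enzymes 1 fell. Hsd17b4, a bifunctional enzyme for branched and very long chains, fell by 1.67 (adjusted p = 1.26e-05), from 6.34 ± 0.24 to 4.66 ± 0.51 (SD, n = 5 each). Ehhadh, the other bifunctional enzyme, differed by −0.46 (adjusted p = 0.0401) and its groups overlapped. It did not pass the adjusted p under cyclic loess (0.305), with the replicate block (0.0564), or without rat 1, 2, 3 or 4 of 0 h or rat 1 or 3 of 48 h (adjusted p from 0.0516 to 0.0946). Acaa1a, a peroxisomal thiolase, had 6.39, 6.40, 6.21, 6.89 and 6.44 at 0 h and 6.66, 6.30, 5.88, 6.18 and 6.67 at 48 h. The groups overlapped, and the difference of −0.13 (adjusted p = 0.607) turned to 0.17 under cyclic loess and was −0.61 (adjusted p = 0.0165) after centring on olfactory receptors. Acaa1b is a close copy of Acaa1a, and signal may be shared between them.

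The thioesterases, which split acyl-CoA back into a free fatty acid, and the genes of ketone body use were each divided. Acot13, a thioesterase associated with mitochondria, fell by 2.28 (adjusted p = 3.11e-07). Acot2, a mitochondrial thioesterase closely related to Acot1, had a difference of −0.45 that did not pass the test (adjusted p = 0.0855). It passed the adjusted p after centring on olfactory receptors (−0.93) and without rat 4 of 48 h (−0.56, adjusted p = 0.031). Oxct1, the transferase that lets muscle use acetoacetate, fell by 1.67 (adjusted p = 2.07e-05).

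Bdh1, 3-hydroxybutyrate dehydrogenase, had 3.74, 3.69, 3.77, 3.90 and 3.97 at 0 h and 4.55, 4.42, 4.12, 4.23 and 4.70 at 48 h. All 48 h rats lay above all 0 h rats, and the difference was 0.59 (SE 0.16, adjusted p = 0.00713), 1.5-fold. The 23 background control probe sets of the array, designed to match no transcript, also had higher medians at 48 h, 3.69 ± 0.12 against 3.10 ± 0.045 at 0 h (SD, n = 5 each). The difference of Bdh1 was 0.32 (adjusted p = 0.134) under cyclic loess and 0.11 (adjusted p = 0.632) after centring on olfactory receptors, and the part of the background in it was not tested.

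Genes that share a step could be compared within each rat, since the difference of 2 log2 values does not depend on a shift common to an array. In all, 8 pairs were tested, with p-values adjusted over them, by a two-sided exact permutation test over the rats, whose smallest possible p with 5 against 5 is 0.00794. Cpt1b minus Cpt1a was 2.77, 3.43, 3.16, 3.47 and 3.30 in the 0 h rats and −0.73, −1.59, −0.65, −0.33 and −1.83 in the 48 h rats. The difference shifted by −4.25 (SE 0.32), 19.1-fold, without overlap (exact permutation p = 0.00794, adjusted over the pairs 0.00907). Since all 48 h rats were lower in Cpt1b and higher in Cpt1a, this lack of overlap was fixed beforehand. The p of this pair therefore adds nothing to the results of the single genes.

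The transcripts of the trifunctional protein's subunits also shifted against each other. Hadhb minus Hadha was 1.31, 0.59, 1.35, 0.94 and 0.99 at 0 h and −1.31, −0.96, −1.30, −1.11 and −0.56 at 48 h, a shift of −2.08 (SE 0.19) or 4.23-fold. Acaa2 minus Acaa1a, the mitochondrial against the peroxisomal thiolase, shifted by −2.46 (SE 0.32). Against Acsl1 the other synthetases differed in degree, with shifts of Acsl1 of −3.94 relative to Acsl5, −3.63 to Acsl3, −2.47 to Acsl4 and −2.36 to Acsl6. These 6 pairs did not overlap and had the same exact permutation p of 0.00794 (adjusted 0.00907). In each of them the group ranges of the single genes had already fixed this lack of overlap. The p-values of these pairs therefore add nothing to the results of the single genes.

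For the 2 subunits of the electron transfer flavoprotein the shift was smaller. Etfb minus Etfa was 0.27, 0.45, 0.47, 0.38 and 0.64 at 0 h and −0.96, −1.21, −0.18, 0.37 and 0.32 at 48 h, so rats 4 and 5 of 48 h lay within the 0 h range. The shift of −0.78 (SE 0.33) had an exact permutation p of 0.0317 (adjusted 0.0317). It ranged from −0.95 to −0.56 when single rats were left out and no longer passed the threshold without rat 2, 3 or 5 of 0 h or rat 1, 2 or 3 of 48 h (adjusted exact permutation p = 0.0635 in each).

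**Figure D4:**
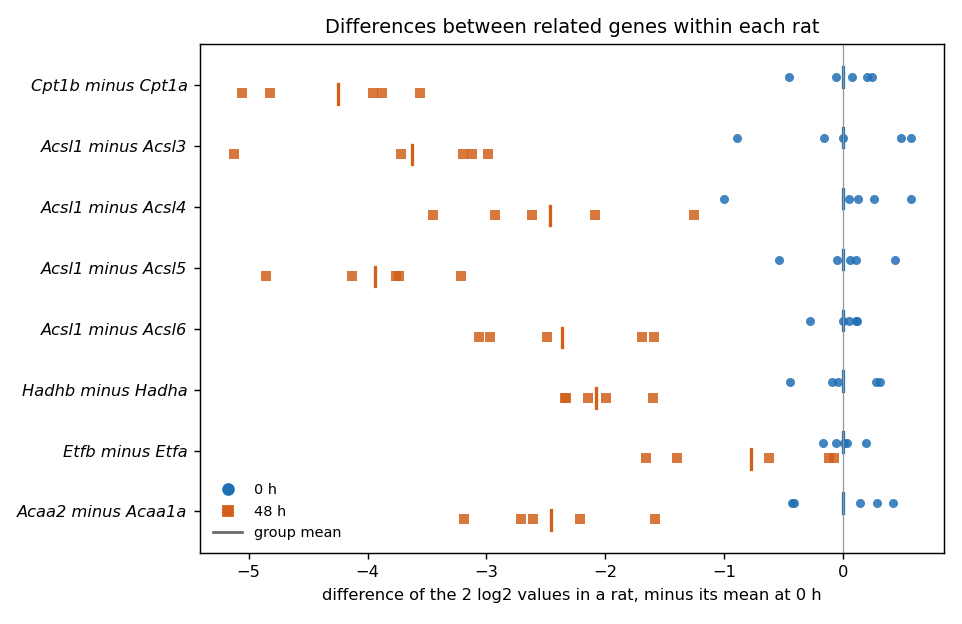
The difference between 2 related genes within each rat, minus its mean at 0 h (log2, horizontal axis), is plotted for 8 pairs, with 1 point per rat, a bar at each group mean and the 0 h and 48 h rats in different colours. The groups are apart in 7 pairs, most widely for Cpt1b minus Cpt1a, whose 48 h mean lies at −4.25, and overlap for Etfb minus Etfa, at −0.78.

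The 39 genes were mostly bright on the array, and probe sets of high mean level fell more often. Of all probe sets in the top 25% by mean over the 10 arrays, 30.7% fell and 4.92% rose, with a median change of −0.48, against a median change of 0.33 in the lowest 25%. In that top 25% lay 26 of the 39 genes, of which 21 fell and 0 rose, with a median change of −2.04. The other 13 genes had a median change of −0.73, and 5 of them fell (Acsl4, Acads, Etfdh, Echs1 and Hsd17b4). Lpl, Acsl3 and Acaa1a were in the top 25% and did not pass the adjusted p. Because the normalization ties the arrays together, the changes are relative to the other probe sets, and centring on olfactory receptor probe sets moved the median of all probe sets to −0.38 and that of the 39 genes to −1.99.

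**Figure D5:**
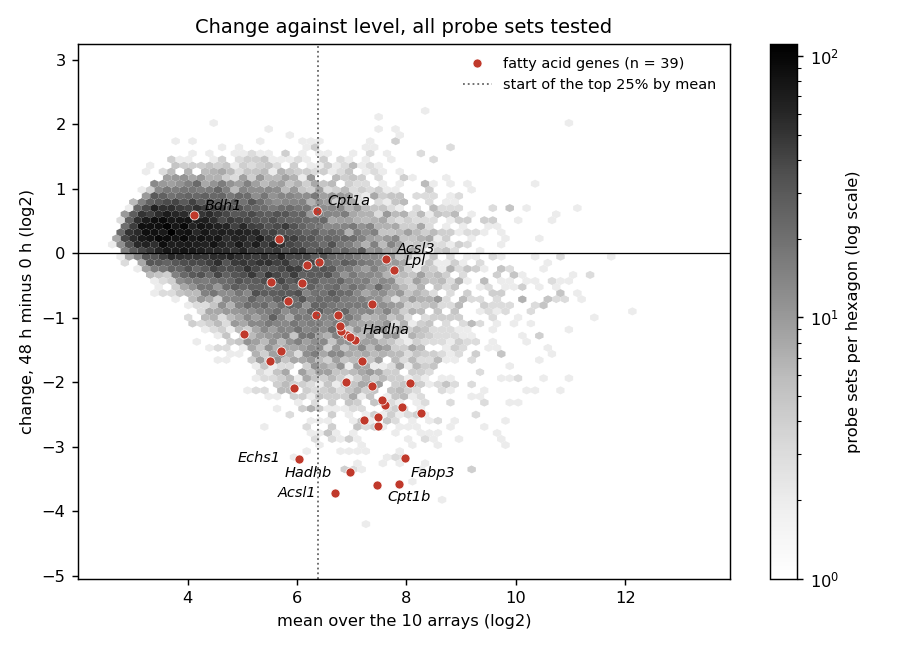
The change from 0 h to 48 h (log2, vertical axis) is plotted against the mean level over the 10 arrays (log2, horizontal axis) for the 39 fatty acid genes (red points) and all 23188 probe sets (hexagons, darker where more lie). The hexagons lean downward at high levels, and the fatty acid genes of the top 25% have a median of −2.04 against −0.48 for all probe sets there.

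Further genes of the pathway were taken from 4 lists, of which 90 had a probe set. Of these, 34 fell and 2 rose, with a median change of −0.71. Over all probe sets 12.1% fell and 4.35% rose, and these shares apply beside the counts of each list. Among 38 other oxidation genes 14 fell and 0 rose. Phyh, the peroxisomal hydroxylase of phytanic acid, fell by 3.25. Pccb, a subunit of propionyl-CoA carboxylase, which takes up the remainder of odd-numbered chains, fell by 3.06. Ivd, the dehydrogenase of leucine breakdown, fell by 2.70, and Mcee, the epimerase that follows propionyl-CoA carboxylase, fell by 2.61 (all 4 adjusted p at or below 2.96e-08).

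Of 24 regulators 11 fell and 0 rose, and these were mostly subunits of AMP-activated protein kinase and transcriptional regulators of oxidative metabolism. Prkab2, Prkag3 and Prkaa2, the subunits that are prominent in skeletal muscle, had changes of −3.32, −2.91 and −2.72 and all fell. Ppargc1a, the coactivator PGC-1 alpha, had 7.34, 7.96, 8.08, 7.75 and 8.11 at 0 h and 6.23, 4.35, 5.72, 5.996 and 4.69 at 48 h. The groups did not overlap, and it fell by 2.45 (SE 0.31, adjusted p = 6.43e-06). Ppara, the nuclear receptor that drives many oxidation genes, fell by 1.75 (adjusted p = 2.64e-07). Its 48 h mean of 3.81 lay within the 48 h range of the background control medians (3.54 to 3.82), so its fall gives only a bound. The relatives of Ppara, Ppard (0.25) and Pparg (0.31), did not pass the test. They had values of −0.23 and −0.17 after centring on olfactory receptors.

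Of 16 uptake and transport genes measured, 3 fell and 1 rose, counts near the shares over all probe sets (12.1% and 4.35%). Their changes were negative in 8 and positive in 8. Dbi, the acyl-CoA-binding protein, fell by 2.01, Got2, an aspartate aminotransferase that has also been described as a fatty acid-binding protein of the plasma membrane, fell by 1.70, and Slc25a20, the carnitine-acylcarnitine carrier between Cpt1b and Cpt2, fell by 1.24. The call of Slc25a20 ended under cyclic loess, at −0.96. Fabp4, the carrier of adipocytes and capillary endothelium, had 10.40, 9.64, 9.60, 9.46 and 9.80 at 0 h and 10.87, 11.18, 10.87, 10.85 and 11.35 at 48 h. It lay higher in all 48 h rats and rose by 1.24 (SE 0.19, adjusted p = 6.03e-05), a call that ended after centring on olfactory receptors, at 0.77.

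Gpihbp1, the endothelial protein that anchors lipoprotein lipase to the capillary wall, had 6.35, 6.61, 6.39, 6.65 and 6.58 at 0 h and 7.53, 7.59, 6.96, 7.21 and 7.72 at 48 h. Fabp5, the epidermal fatty acid-binding protein, had 7.27, 7.27, 7.22, 7.09 and 7.42 at 0 h and 8.14, 8.17, 7.81, 7.67 and 9.21 at 48 h. Neither overlapped between groups, and with differences of 0.89 (adjusted p = 0.000599) and 0.95 (adjusted p = 0.00365) both stayed short of 2-fold. Under cyclic loess both passed it, at 1.31 and 1.48, and after centring on olfactory receptors they were at 0.41 (adjusted p = 0.0785) and 0.47 (adjusted p = 0.133). Endothelial markers moved the same way, from a log2 summed level of 10.6 to 11.1 over the 0 h rats to one of 12.0 to 12.8 over the 48 h rats, and their part in these values was not tested.

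Of 12 genes of lipolysis and lipid stores 6 fell and 1 rose. Plin2, a coat protein of lipid droplets, fell by 2.39. Gpam and Lpin1, of triglyceride synthesis, fell as well, with changes of −2.23 and −2.20. Abhd5, the activator of adipose triglyceride lipase, fell by 1.58. Lipe, hormone-sensitive lipase, which splits diglycerides, had 6.43, 5.85, 5.63, 6.11 and 6.72 at 0 h and 7.64, 8.31, 8.37, 8.06 and 8.38 at 48 h. All 48 h rats were higher, and Lipe rose by 2.005 (SE 0.22, adjusted p = 1.29e-06), 4.01-fold. Of the 9 adipocyte markers 2 rose, Fabp4 and Lipe themselves, and 1 fell, Cfd, by 2.27. Their changes were positive in 5 and negative in 4, with a median of 0.26. Cfd was uneven at 0 h, at 7.79 ± 1.30 (SD, n = 5). The part of adipocytes in the rise of Lipe was not tested.

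Hadha and Hadhb are neighbours in the rat genome, transcribed away from each other, and their shared upstream stretch is shown because these 2 genes differed in their fall. In the RefSeq annotation of GRCr8, Hadha starts at 31907801 on the plus strand of chromosome 6 and Hadhb at 31907500 on the minus strand, with 300 bases between them. The stretch chr6:31907501-31907800 is printed on the plus strand, with GC boxes in capitals (CCGCCC, the reverse complement of GGGCGG).
Hadha-Hadhb: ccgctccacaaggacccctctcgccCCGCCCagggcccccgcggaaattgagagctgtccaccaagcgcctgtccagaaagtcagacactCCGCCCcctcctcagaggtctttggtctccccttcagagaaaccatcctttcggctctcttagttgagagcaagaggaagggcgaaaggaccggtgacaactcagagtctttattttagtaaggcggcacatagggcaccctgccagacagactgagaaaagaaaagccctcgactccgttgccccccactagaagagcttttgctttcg
Both GC boxes lie on the side of Hadhb, at positions 26 to 31 and 91 to 96 of the stretch counted from its left end.

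Start-site windows of 300 bases were available from RefSeq for 34 of the 39 genes, and for 27457 genes in all, and were searched on both strands. The GC box GGGCGG was present in 24 of the 34 windows (70.6%), against 34.9% of all windows. The windows of Hadha and Hadhb overlap by 200 bases and share the box at positions 91 to 96, so these windows are not separate. Of the 26 genes that fell 22 had a window, and Cpt1b, Acadl, Acaa2 and Decr1 had none. The GC box was present in 16 of these 22 windows, so it did not set the fallen genes apart within the 34. The 27457 windows were not chosen by expression in muscle. The box CCAAT was present in 13 (38.2% against 37.7%) and TATAAA in 2 (5.88% against 14.3%). The half-site AGGTCA, bound by nuclear receptors of the class of PPAR and RXR, was present in 7 (20.6% against 15.7%). Its direct repeat, AGGTCA joined to a further AGGTCA with 1 base of any kind between, and the estrogen-related receptor element TCAAGGTCA, which both contain the half-site, were present in 0 of the 34, and in 0.0583% and 0.412% of all windows. The core of the NRF1 site, GCGC followed by any base and then TGCGC, was present in Acot13, Etfb and Etfdh (8.82% against 4.71%). These are matches of letters in a window and no measure of binding.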

How the data were processed

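Femoral muscle of 5 rats at 0 h and 5 rats at 48 h of PMI was measured on Clariom S Rat arrays, 1 per rat, with groups and rat numbers from the labels. The authors amplified and labeled the RNA with a 3′ IVT Pico kit and ran RMA on the arrays. The submitters' processing notes name Transcriptome Analysis Console version 4.0 and the rat build rn6. RMA gives log2 values, and those deposited were background-corrected, quantile-normalized across the arrays and summarised per probe set, and were used as deposited. A change common to all transcripts cannot be seen in them.

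Of 24834 probe sets, 1646 controls were left out, and 23188 were tested with limma 3.58.1 (lmFit and eBayes, two-sided, 8 residual and 8.99 prior degrees of freedom) in R 4.3.3, with Benjamini-Hochberg adjustment over all of them. The words rose and fell stand for a fold change of 2 or more at an adjusted p under 0.05. The p-values measure the spread between rats. Symbols came from the platform's probe table, which can be old, checked against the names of GRCr8, and gave 15049 probe sets a symbol, and the probe set with the highest mean stood for a gene. Pairs of genes were compared within rats by exact permutation over 252 splits (scipy 1.17.1), and figures were drawn with matplotlib 3.10.9. The limma script was tested on simulated data.

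Full statistics are given for the 8 largest falls, the 4 highest changes and the related pairs. Further pathway genes are named from the 4 largest changes of each list in each direction, and Ppara, Ppard and Pparg were added after their values were seen. The members, lists and tests were chosen with earlier results of these data known. Alternatives were cyclic loess scaling, centring on 1057 olfactory receptor probe sets, other moderation, array weights, a filter on low values, other fold thresholds, a replicate block and leaving out each rat. The precision is limited by the number of arrays.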

Additional observations from a re-analysis of the deposited data

Results flagged for a closer look

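In 10 of 78 groups of 5 rats, in 9 of the 39 genes, a single rat lay far from the other 4, with a gap to its nearest neighbour above 0.71 of the group's range. Chance flags about 1 in 20 such groups. Rat 1 at 0 h was the lowest in 7 of these groups. Its values were 8.68 for Fabp3 (the other rats 9.79 to 10.21), 7.83 for Acsl1 (8.60 to 8.88), 7.29 for Acsl6 (7.77 to 7.95) and 8.73 for Cpt1b (9.33 to 9.45). They were 7.95 for Acadm (8.49 to 8.54), 6.52 for Etfdh (7.02 to 7.15) and 8.30 for Hadh (8.82 to 8.98). The genes share these arrays, so the 7 groups are not separate observations.

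At 0 h rat 5 was far above the others in Decr1, at 8.05 (7.12 to 7.25). At 48 h rat 2 was far above the others in Lpl, at 7.82 (7.56 to 7.62), and rat 1 in Acsl6, at 7.24 (6.14 to 6.21).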

How the results depend on the processing

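All 26 genes that fell kept their direction in each of the 18 settings that measured them, and 21 kept their call. The filter on low values left out Acsl4 and Bdh1, so 37 of the 39 genes were tested there and 25 fell. The calls of Acsl6, Cpt2, Acacb, Hadha and Decr1 ended under cyclic loess, and those of Acacb and Decr1 also without single rats. The number of fallen genes was 21 under cyclic loess (8.84% of all probe sets fell), 30 after centring on olfactory receptors (22.2% of all probe sets), 31 without a fold threshold, and 25 to 28 without single rats. The median change ranged from −1.62 to −1.31 without single rats and was −1.33 under cyclic loess and −1.99 after centring on olfactory receptors. With no fold threshold or at 1.5-fold, 2 of the 39 genes were called higher. Genes higher without overlap numbered 1 under cyclic loess, 0 after centring on olfactory receptors and 1 with low values left out. The other pathway genes that rose numbered 6 under cyclic loess, 1 after centring on olfactory receptors, 10 without a fold threshold, 8 at 1.5-fold and 2 to 3 without single rats. Signs turned for Lpl (0.28), Acsl3 (0.43), Acad9 (0.058) and Acaa1a (0.17) under cyclic loess. They also turned for Acsl5 (−0.25) after centring and for Acsl3 without rat 1 of 48 h (0.0033). Without rat 2 of 48 h, the rat with the highest Acsl3 value, the difference of Acsl3 was −0.24. The shift of Etfb against Etfa ranged from −0.95 to −0.56 without single rats. The causes were not tested. Rat numbers name different animals in the groups. Deviations of same-numbered rats correlated between −0.00416 and 0.0761, 3 of 5 rats correlated best with their own number, and with the replicate block 26 genes fell, 0 rose and the median change was −1.51. Of the pathway genes 34 fell and 2 rose with the block, and Ehhadh lost its adjusted p (0.0564).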
